A study of Mus musculus with 10 samples.

Results

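Adipoq, Plin1, Lep, Cfd, Retn, Fabp4, Gpd1, Lpl, Cidec and Pparg are genes whose products fat cells make in quantity, and their mRNA was followed in mouse cheek skin 4 hours after an injection of MMP9, a secreted gelatinase. The genes were taken by symbol, and all 10 were found among the 18994 genes listed and among the 15250 that passed the filter on low counts. The tissue came from C57BL/6 mice of 6 to 8 weeks whose cheek had been shaved 3 days before. In each mouse the right cheek was injected intradermally with 5 µL, which held 1 µg of MMP9 in 5 mice and vehicle alone in the other 5 mice. Each library is 1 numbered mouse. The sources used here give neither the sex of the mice nor what the vehicle was.

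White adipocytes store triglyceride in a single large lipid droplet and secrete protein hormones, the adipokines. In mouse skin a layer of dermal adipocytes lies under the dermis and around the lower part of hair follicles, and it thickens and thins with the hair cycle. Pparg encodes the nuclear receptor that drives fat cell differentiation. Its targets include Fabp4, Adipoq, Lpl, Plin1 and Cidec, whose products bind fatty acids, signal to other tissues, release fatty acids from lipoproteins, coat the droplet and fuse droplets.

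The upstream windows of the genes for adiponectin and leptin are shown first, because these hormones define the fat cell as a secretory cell. Both windows are the 250 bases before the annotated start, from RefSeq's GRCm38.p6, a build earlier than the GRCm39 named in the submitters' processing notes. The Adipoq window lies at chr16:23146286-23146535 on the plus strand, and the Lep window at chr6:29059971-29060220 on the plus strand. Capitals mark matches, on either strand, to CCAAT in Adipoq and to TTGCGCAA, a binding site of C/EBP factors, in Lep.
Adipoq: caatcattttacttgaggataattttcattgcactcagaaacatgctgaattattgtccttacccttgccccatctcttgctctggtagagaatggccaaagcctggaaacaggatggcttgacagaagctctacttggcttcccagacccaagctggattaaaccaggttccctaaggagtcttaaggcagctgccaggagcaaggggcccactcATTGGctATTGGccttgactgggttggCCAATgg
Lep: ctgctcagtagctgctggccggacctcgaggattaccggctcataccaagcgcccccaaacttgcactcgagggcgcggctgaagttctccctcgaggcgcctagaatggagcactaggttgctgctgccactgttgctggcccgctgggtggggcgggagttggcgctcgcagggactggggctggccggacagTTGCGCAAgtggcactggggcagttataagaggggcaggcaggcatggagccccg

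In the table of promoters, 7 of the 10 genes had a window and Pparg and Cidec had more than 1 start, which gave 10 windows. Fabp4, Gpd1 and Lpl had no entry. The palindrome TTGCGCAA was found in the Lep window, 55 to 48 bases before the start, and in 0.164% of all 32851 windows of that length. CCAAT, read on both strands, was found in the Adipoq window and in a pair of the Pparg windows, 3 of 10 in all, against 33.8% of all windows. TATAAA was found in 1 of 10 windows, the second Pparg start, against 12.4% of all windows. The DR1 element, a direct repeat of AGGTCA spaced by 1 base that Pparg binds with its partner Rxra, was searched without mismatches and was found in 0 of 10 windows and in 0.0335% of all windows. The motifs do not overlap in the windows printed.

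The libraries held between 17121541 and 19443099 estimated counts. Epidermal markers were abundant in all of them, with the lowest of the 10 marker genes at 10.97 TPM or more in each library, so the labelled tissue had its defining transcripts. Skeletal muscle markers, 10 genes, summed to between 19466 and 36485 TPM over the libraries, so muscle was sampled with the skin. Ucp1, the uncoupling protein that defines brown fat, had 8 counts over all 10 libraries and never more than 1 in a library. MMP9 mouse 4 stood apart from all other libraries in composition, since ribosomal protein genes made up 26.1% of its TPM, against 16.8% to 18.4% in the other 9 libraries.

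No adipocyte gene differed between MMP9 and vehicle beyond the spread between mice. With edgeR's quasi-likelihood test and Benjamini-Hochberg adjustment over all tested genes, 0 of 10 passed at an adjusted p of 0.05, where 0% of all 15250 genes passed. At an unadjusted p under 0.05 there were again 0 of 10, against 3.19% of all tested genes. DESeq2 also called 0 of the 10 and, among all genes with an adjusted p, called 0.00528%, which is the single gene Pnliprp2. In CPM, the counts scaled to library size with edgeR's TMM factors, the groups overlapped for all 10 genes, while the groups did not overlap for 0.564% of tested genes. The log2 fold change, MMP9 over vehicle, was positive for 6 and negative for 4, with a median of 0.06, beside a median of 0.01 over all tested genes. For 8 of the 10 genes the 95% interval stayed between -1 and 1 on the log2 scale, the exceptions being Adipoq and Retn.

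**Figure D1:**
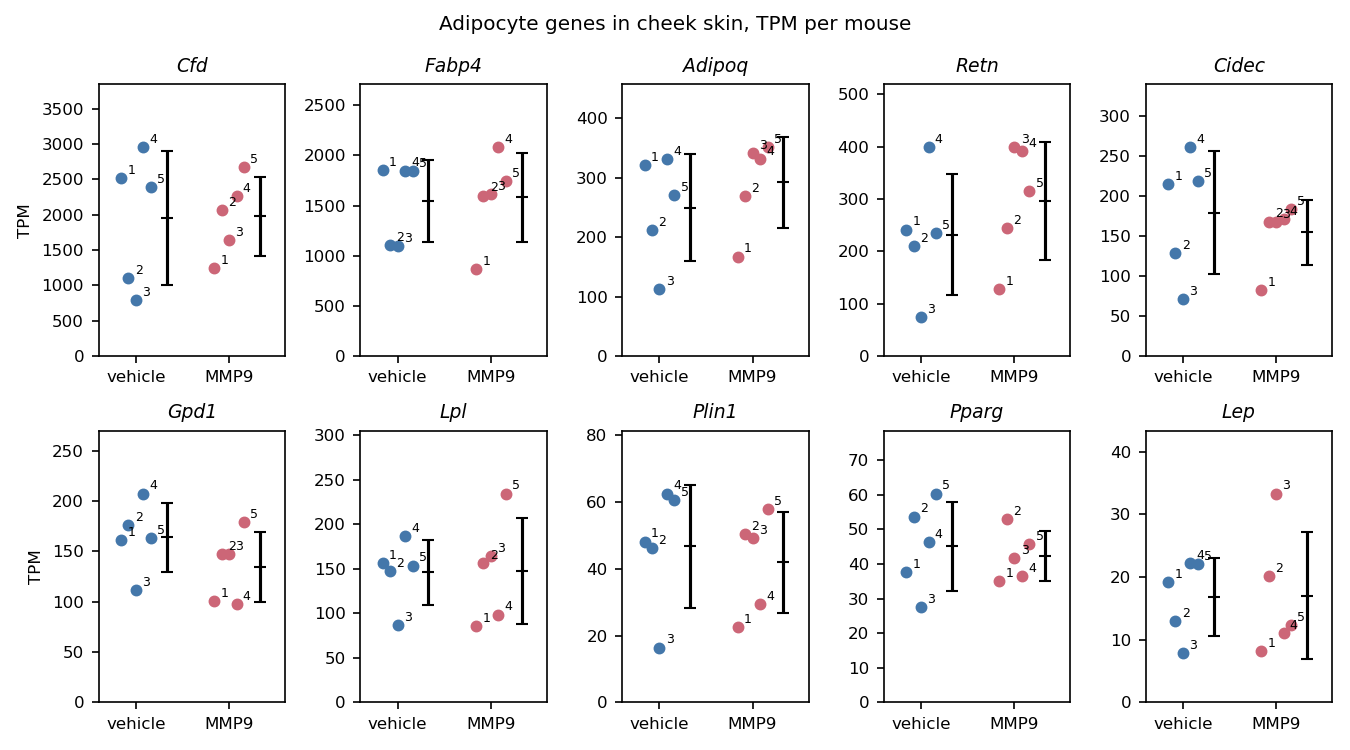
TPM, the deposited length-scaled transcript abundance (vertical axis, starting at 0), of the adipocyte genes in each mouse given vehicle (blue) or MMP9 (red), with the mouse number beside each point and the group mean and SD (n = 5) as a bar. The groups overlap in every panel, and vehicle mouse 3 and MMP9 mouse 1 lie low throughout.

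Of the secreted products, Cfd was the most abundant transcript. It encodes adipsin, the complement factor D protease that cleaves factor B, and it ranked at place 92 of all listed genes by mean TPM, the deposited abundance scaled by transcript length. It stood at 2514, 1106, 794, 2957 and 2385 TPM in vehicle mice 1 to 5 and at 1240.2, 2065, 1637, 2261 and 2675 TPM in MMP9 mice 1 to 5. The lowest and the highest value were both in vehicle mice. The means were 1951 ± 945 and 1976 ± 556 TPM (SD, n = 5), and edgeR estimated the log2 fold change at 0.14 (standard error, SE, 0.39, adjusted p 0.987). Without MMP9 mouse 4 it was -0.10.

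Adipoq, the adiponectin gene, stood at 322, 213, 113, 331 and 271 TPM in vehicle mice 1 to 5. In MMP9 mice 1 to 5 it stood at 167, 269, 342, 332 and 352 TPM. Values above all vehicle mice were seen in 3 of 5 MMP9 mice on this scale, and MMP9 mouse 1 was below 4 of the 5 vehicle mice. The means were 249.8 ± 90.03 and 292 ± 77.03 TPM, and the log2 fold change of 0.34 (SE 0.33) had an edgeR adjusted p of 0.981. It went to 0.11 without MMP9 mouse 4 and to 0.155 without vehicle mouse 3.

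Retn encodes resistin, a hormone made by adipocytes in the mouse, and it had the widest range of the set. It stood at 241, 210.4, 73.6, 399 and 234 TPM in vehicle mice 1 to 5, and at 128, 244, 398, 391 and 316 TPM in MMP9 mice 1 to 5. The highest library had 5.42 times the TPM of the lowest, and both of these were vehicle mice. Its log2 fold change was the largest of the 10 at 0.49 (SE 0.45), with a 95% interval from -0.49 to 1.48 and an edgeR adjusted p of 0.981. It went to 0.165 without MMP9 mouse 4, 0.26 without vehicle mouse 3 and 0.77 without vehicle mouse 4.

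Lep, the gene of the satiety hormone leptin, was the least abundant of the set. It stood at 19.1, 12.9, 7.86, 22.2 and 22.1 TPM in vehicle mice 1 to 5, and at 8.23, 20.2, 33.3, 11.1 and 12.3 TPM in MMP9 mice 1 to 5. A single MMP9 mouse, mouse 3, lay above all vehicle mice, although 3 of the other MMP9 mice lay below 4 of the 5 vehicle mice. Leptin's log2 fold change was 0.05 (SE 0.37, edgeR adjusted p 0.994), and it went to -0.275 without MMP9 mouse 3.

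Fabp4, the fatty acid binding protein of adipocytes that capillary endothelium also makes, was the second most abundant. It stood at 1852, 1104, 1098, 1849 and 1844 TPM in vehicle mice 1 to 5, and at 863, 1599, 1613, 2083 and 1745 TPM in MMP9 mice 1 to 5. The vehicle mice fell into 3 values within 8 TPM of each other and a pair within 8 TPM at the bottom, a span that held 3 of the 5 MMP9 mice. Between the groups the log2 fold change was 0.17 (SE 0.32, edgeR adjusted p 0.981), and it turned to -0.15 without MMP9 mouse 4.

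Lpl encodes lipoprotein lipase, which frees fatty acids from circulating triglyceride and is also made by muscle. It stood at 156, 147, 87.2, 186 and 153 TPM in vehicle mice 1 to 5, and at 85.6, 156, 164, 98.5 and 234 TPM in MMP9 mice 1 to 5. The extremes were both MMP9 mice, mouse 1 at the bottom and mouse 5 at the top. For Lpl the log2 fold change was 0.07 (SE 0.27, edgeR adjusted p 0.990), and it was -0.14 without MMP9 mouse 5.

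Among the droplet and storage genes, Gpd1 had the most precise estimate. Gpd1 encodes the cytosolic glycerol 3-phosphate dehydrogenase that supplies the glycerol backbone of triglyceride, and other tissues use it as well. It stood at 161, 176, 112, 207 and 163 TPM in vehicle mice 1 to 5, and at 101, 148, 147, 97.6 and 179 TPM in MMP9 mice 1 to 5. In TPM both of its lowest values were MMP9 mice, 1 and 4. In CPM the lowest were MMP9 mouse 1 at 155 and vehicle mouse 3 at 186, with MMP9 mouse 4 at 245. On either scale only MMP9 mouse 5 exceeded more than 1 vehicle mouse. The means were 164 ± 34.5 and 134 ± 34.5 TPM, and the log2 fold change of -0.23 (SE 0.19) had a 95% interval from -0.65 to 0.19 (edgeR adjusted p 0.981). Its sign was negative under every one of the 19 alternative settings, between -0.34 and -0.12.

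Cidec encodes the protein that fuses small lipid droplets into large ones. It stood at 215, 129, 70.9, 261 and 219 TPM in vehicle mice 1 to 5, and at 82.4, 168, 167, 171 and 183 TPM in MMP9 mice 1 to 5. The MMP9 values lay inside the vehicle range, and 4 of them were within 16 TPM of each other. A log2 fold change of -0.10 (SE 0.36, edgeR adjusted p 0.990) resulted, which went to 0.08 without MMP9 mouse 1 and to -0.32 without MMP9 mouse 4.

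Plin1, perilipin 1, coats the droplet and gates its lipolysis. It stood at 48.1, 46.0, 16.4, 62.4 and 60.4 TPM in vehicle mice 1 to 5, and at 22.5, 50.4, 49.1, 29.4 and 57.8 TPM in MMP9 mice 1 to 5. The vehicle range again enclosed all MMP9 values. Perilipin's log2 fold change was -0.11 (SE 0.34, edgeR adjusted p 0.988), and it went to 0.07 without MMP9 mouse 1.

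Pparg, the regulator of the set, is also expressed in sebaceous glands. It stood at 37.6, 53.7, 27.6, 46.3 and 60.3 TPM in vehicle mice 1 to 5, and at 35.1, 52.9, 41.6, 36.4 and 45.7 TPM in MMP9 mice 1 to 5. All MMP9 values lay within the vehicle range, with the means at 45.1 ± 12.9 and 42.3 ± 7.26 TPM. Its log2 fold change of -0.02 (SE 0.20) had a 95% interval from -0.46 to 0.43 (edgeR adjusted p 0.998).

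**Figure D2:**
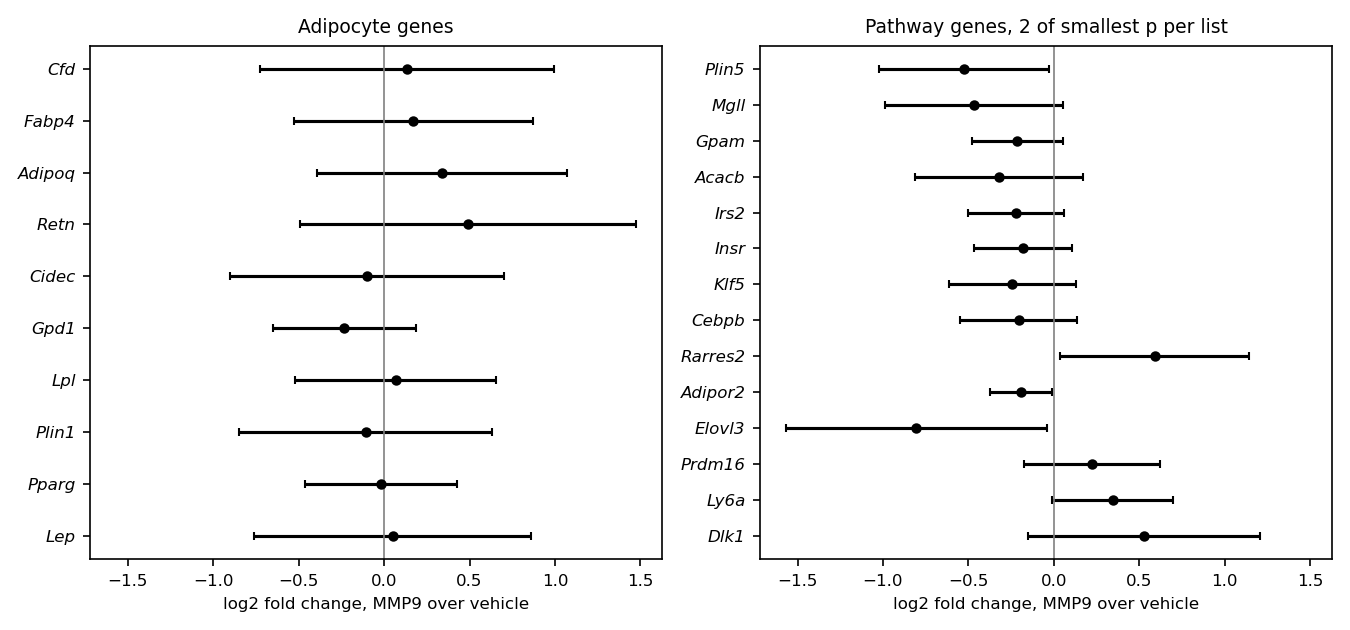
Log2 fold change of CPM, MMP9 over vehicle (horizontal axis), from the edgeR fit, with 95% intervals as bars, for the adipocyte genes (left) and for the genes of smallest p in each list of pathway genes (right). Every adipocyte interval spans 0, and none of the genes shown passed the adjusted threshold.

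In the order of mean TPM the genes ran Cfd, Fabp4, Adipoq, Retn, Cidec, Gpd1, Lpl, Plin1, Pparg and Lep. Cfd and Fabp4 together gave 76.2% of the summed TPM of the set. Their ranges overlapped, with Cfd above Fabp4 in 9 of 10 libraries. Ranges over the 10 libraries were separate between Fabp4 and Adipoq, and between Lpl and Plin1. Each other neighbouring pair had overlapping ranges, and Plin1 lay above Pparg in only 5 of 10 libraries. Summed over the set, TPM averaged 4579 ± 1685 in the vehicle mice and 4681 ± 1199 in the MMP9 mice (SD, n = 5 each), which is less of a difference than the spread within either group. In bulk tissue such as this, fewer fat cells and less of these mRNAs per fat cell cannot be told apart.

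The mice of a group differed from each other more than the group means did, and they did so with most of the set at once. In summed TPM, vehicle mice 1 to 5 had 5565, 3198, 2399, 6321 and 5412 TPM, and MMP9 mice 1 to 5 had 2733, 4772, 4593, 5509.8 and 5799 TPM. Vehicle mouse 3 and MMP9 mouse 1 were the lowest, and they were the lowest pair for 8 of the 10 genes taken singly. For all 10 genes both mice were among the 3 lowest libraries in TPM. In log2 CPM, 0 of 10 genes were above their own mean in either of them, while 10 of 10 were above it in vehicle mouse 4. The SD of log2 CPM within groups was between 0.34 for Gpd1 and 0.88 for Retn, beside a median of 0.24 over all tested genes. The least abundant gene, Lep, had at least 279 counts in every library, and the 6358 genes at least as abundant as the lowest of the set had a median SD of 0.20. By this SD, Retn was above 97.0% of tested genes and Cfd above 95.5%, and the narrowest, Gpd1 and Pparg, were above 71.6% and 76.5%.

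**Figure D3:**
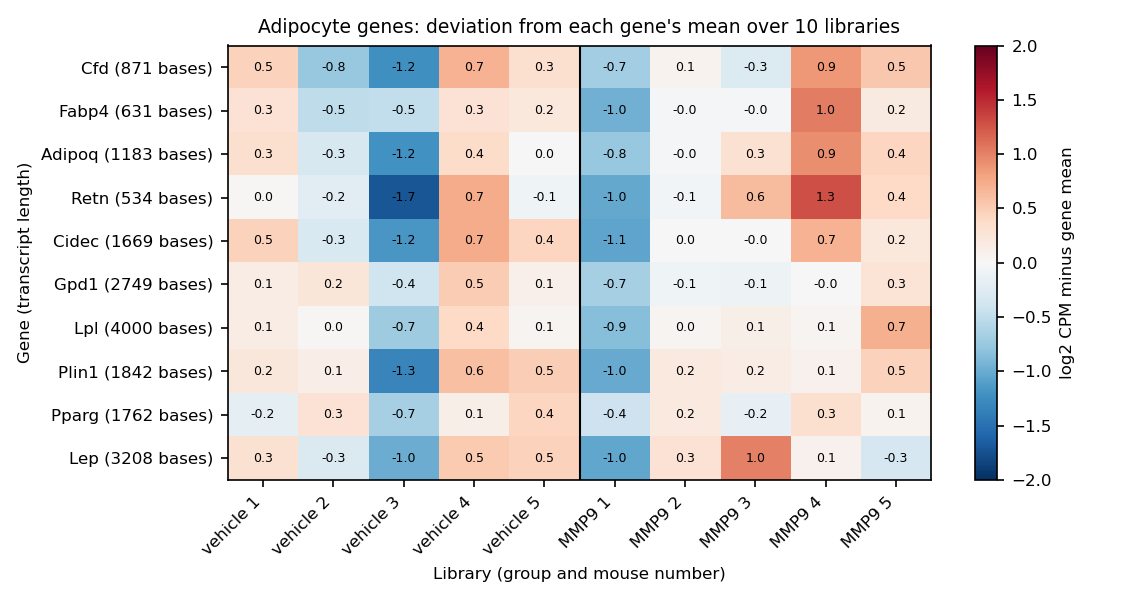
Log2 CPM minus the gene's mean over all 10 libraries (colour and printed value) for each adipocyte gene (rows, with transcript length) in each library (columns, vehicle left of the line). Vehicle mouse 3 and MMP9 mouse 1 are below the mean for every gene, vehicle mouse 4 is above it for every gene, and MMP9 mouse 4 is high in the shorter transcripts.

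Other cell types varied between the same mice. In vehicle mouse 3 the median deviation of the 10 macrophage markers from their own means was -1.23 on the log2 scale, and that of the 10 fibroblast markers was -0.77. MMP9 mouse 1 was close to the mean in both, at -0.09 and 0.01. Skeletal muscle markers were at 0.07 in vehicle mouse 3 and at -0.51 in MMP9 mouse 1. For hair shaft and inner root sheath markers, of which 9 were tested, the same mice were at opposite ends, with summed levels of 4749 TPM in vehicle mouse 3, the highest, and 4.04 TPM in MMP9 mouse 1, next to the lowest. The part of these cell types in the low fat values was not tested.

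Across the 10 libraries, the genes of the set were compared with Adipoq in log2 CPM, together with the median level of 8 marker lists, which makes 17 relations with p-values adjusted over them. Of the 9 other adipocyte genes, 6 passed by Pearson's r and 5 by Spearman's rho at an adjusted permutation p of 0.05. Retn was closest to Adipoq, with r = 0.97 (permutation adjusted p 0.00068) and rho = 0.93 (adjusted p 0.00348). Cidec followed with r = 0.92 (permutation adjusted p 0.00149) and rho = 0.85 (adjusted p 0.00989), and Cfd with r = 0.91 (permutation adjusted p 0.000907) and rho = 0.94 (adjusted p 0.00306). Fabp4 had r = 0.88 (permutation adjusted p 0.00391) and rho = 0.85 (adjusted p 0.00989). The 2 libraries farthest from the median Adipoq level were vehicle mouse 3 and MMP9 mouse 1. Without them, r was 0.90 for Retn, 0.72 for Cidec, 0.79 for Cfd and 0.91 for Fabp4, with MMP9 mouse 4 still included. With only MMP9 mouse 4 left out, r was 0.96 for Retn, 0.92 for Cidec, 0.89 for Cfd and 0.83 for Fabp4. These genes have shorter transcripts (534 to 1669 bases) than the other genes compared with Adipoq (1762 to 4000 bases). The part of length in these r values was not tested.

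For the other adipocyte genes r was between -0.17 and 0.29 without vehicle mouse 3 and MMP9 mouse 1, over 8 libraries that still hold MMP9 mouse 4. Plin1 had r = 0.81 (permutation adjusted p 0.0230) and rho = 0.54 (adjusted p 0.218), and without both mice r was -0.05. Lpl had r = 0.79 (permutation adjusted p 0.0213) and rho = 0.81 (adjusted p 0.0201), and without both mice r was 0.29. Lep had r = 0.70 (permutation adjusted p 0.0525) and rho = 0.43 (adjusted p 0.335), and r was 0.08 without them. Pparg, with r = 0.65 (permutation adjusted p 0.0752) and rho = 0.39 (adjusted p 0.369), went to -0.17. Gpd1, with r = 0.64 (permutation adjusted p 0.0771) and rho = 0.60 (adjusted p 0.154), went to -0.06. Leaving out vehicle mouse 3 alone gave r = 0.63 for Plin1 (permutation adjusted p 0.181) and r = 0.70 for Lpl (permutation adjusted p 0.0911). Leaving out MMP9 mouse 1 alone gave r = 0.76 (permutation adjusted p 0.144) and r = 0.75 (permutation adjusted p 0.108). Lep and Gpd1 passed when values were centred on the treatment means, with r = 0.73 (permutation adjusted p 0.0360) and r = 0.83 (permutation adjusted p 0.0182). The permutations did not account for the means removed, so the p-values of centred values may be too low. On log2(TPM + 1) the r of Gpd1 was 0.49 and that of Pparg 0.49, and neither passed. Without MMP9 mouse 4, Lep and Gpd1 passed as well, with r = 0.79 (permutation adjusted p 0.0231) and r = 0.76 (permutation adjusted p 0.0358), and Pparg passed without vehicle mouse 2, with r = 0.75 (permutation adjusted p 0.0451). Lep also passed without MMP9 mouse 5, with r = 0.78 (permutation adjusted p 0.0318). Leaving out MMP9 mouse 4 also raised r to 0.92 for Plin1 and 0.91 for Lpl and lowered it to 0.83 for Fabp4. The number of relations passing went from 7 to 11 without that library.

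**Figure D4:**
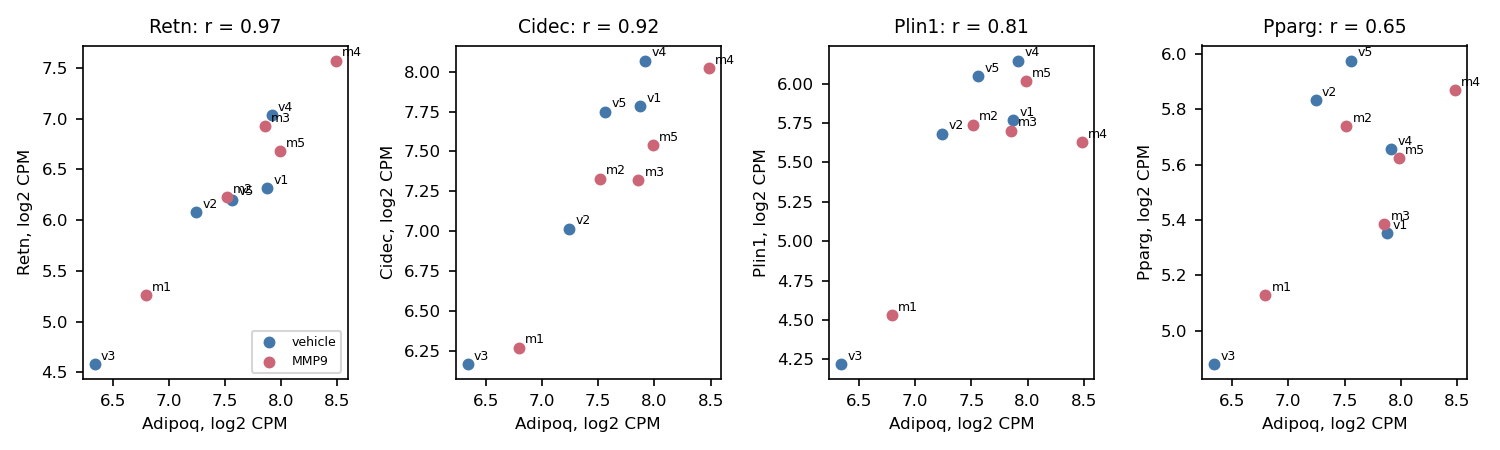
Log2 CPM of Retn, Cidec, Plin1 and Pparg (vertical axes) against log2 CPM of Adipoq (horizontal axis) in vehicle (blue, v) and MMP9 (red, m) mice, numbered, with Pearson's r over the 10 libraries above each panel. The points of Retn follow a line. In the Plin1 and Pparg panels v3 and m1 lie apart at the lower left, and r over the other 8, m4 among them, is -0.05 and -0.17. With only m4 left out, r is 0.92 for Plin1 and 0.60 for Pparg.

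Of the 8 marker lists, 1 passed against Adipoq, that of fibroblasts, with r = 0.94 (permutation adjusted p 0.000907) and rho = 0.89 (adjusted p 0.00652). That value depends on the scoring: with each gene first set to its own mean, a score chosen after the data were seen, r was 0.62 (permutation adjusted p 0.0896) and 0 of 8 lists passed. Centred on the treatment means, r was 0.60 (permutation adjusted p 0.108). Skeletal muscle had r = 0.55 (permutation adjusted p 0.157) and rho = 0.72 (adjusted p 0.0556), and r was 0.83 without the 2 mice lowest in Adipoq, 0.38 without MMP9 mouse 4 and 0.28 on log2(TPM + 1). Macrophages had r = 0.52 (permutation adjusted p 0.185) and rho = 0.19 (adjusted p 0.688), and epidermis had r = -0.36 (permutation adjusted p 0.413) and rho = -0.36 (adjusted p 0.410). Single mice moved several of these: without vehicle mouse 3, muscle had r = 0.82 (permutation adjusted p 0.0111) and hair r = 0.77 (permutation adjusted p 0.0402), and without MMP9 mouse 4, macrophages had r = 0.73 (permutation adjusted p 0.0473) and epidermis r = -0.71 (permutation adjusted p 0.0481). Over all 10 libraries hair had r = 0.32, blood endothelium 0.30 and sebaceous glands 0.27, and none of these passed. Adipocyte precursors had r = 0.29 (permutation adjusted p 0.438) and rho = 0.27 (adjusted p 0.543).

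The genes outside the set that were most like Adipoq over the 10 libraries were found among 14621 genes with a mean of at least 1 CPM, by Pearson's r of log2 CPM, given as a likeness without a test. They were Fcor (r = 0.99), Rbp4, the retinol binding protein gene (0.98), Cdo1, cysteine dioxygenase (0.98), and Car3, a carbonic anhydrase of fat and muscle (0.96). Sqor, Cd209d, Chpt1 and Amy1 followed at 0.95, 0.95, 0.95 and 0.94. Fcor, Cdo1 and Rbp4 remained the closest 3 without MMP9 mouse 4, with an r of 0.98 each, and Car3 was at place 6. In the same ranking of all genes, Retn was at place 4, Cidec at 28, Cfd at 36 and Fabp4 at 75, with Plin1 at 173, Lpl at 210, Lep at 624, Pparg at 921 and Gpd1 at 1030. These places depend on MMP9 mouse 4: without it, Retn was at 8, Plin1 at 41, Cidec at 47, Lpl at 57, Cfd at 83, Fabp4 at 212, Lep at 319, Gpd1 at 415 and Pparg at 1345. Amy1 and Cd209d have relatives of similar sequence, so their counts may be uncertain, which was not tested. Fcor averaged only 3.32 CPM over the libraries. The points share libraries and tissue makeup, and both bear on every one of these values.

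In MMP9 mouse 4 the set divided by transcript length. The length of a transcript was taken as that implied by the deposited counts and FPKM, and it ran from 534 bases for Retn to 4000 for Lpl. Retn, Fabp4 (631 bases), Cfd (871) and Adipoq (1183) were the 4 genes under 1500 bases, and each had its highest CPM of all libraries in this mouse. Of the 6 longer genes, 0 did. Their deviations from the gene's mean in log2 CPM were 1.28 for Retn, 1.02 for Fabp4, 0.87 for Cfd and 0.93 for Adipoq, and then 0.70 for Cidec, 0.32 for Pparg, 0.08 for Plin1, -0.01 for Gpd1, 0.09 for Lep and 0.05 for Lpl. The median was 0.98 for the shorter and 0.08 for the longer genes. For 1261 tested genes FPKM was too low to imply a length. Of the remaining tested genes, 2811 were under 1500 bases and 11178 were longer. Their median deviations in this mouse were 0.54 and -0.09, whereas the median of the shorter class was between -0.15 and -0.01 in the other 9 libraries. The same library had the high share of ribosomal protein transcripts, and the part of length or RNA quality in the adipocyte values was not tested.

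**Figure D5:**
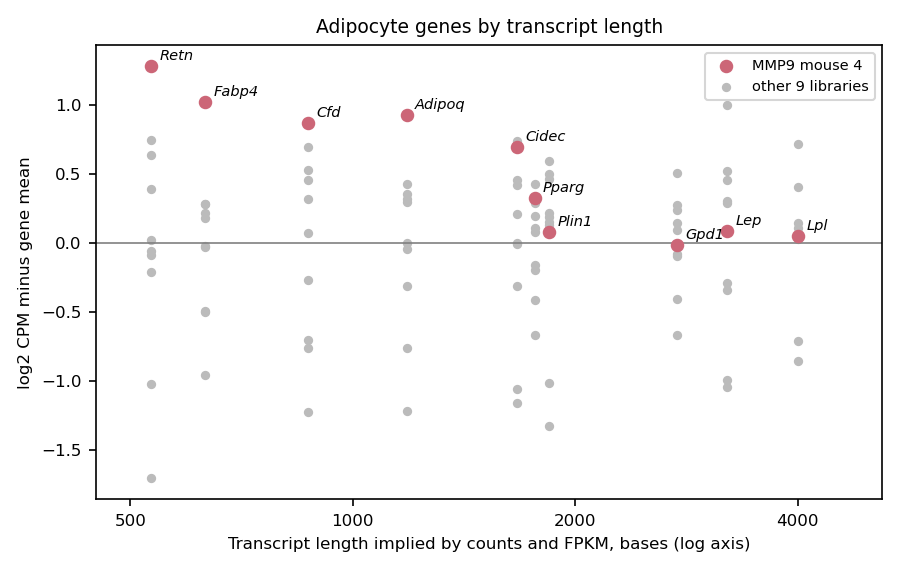
Log2 CPM minus the gene's mean (vertical axis) of the adipocyte genes against transcript length in bases (horizontal, log axis) in MMP9 mouse 4 (red) and in the other 9 libraries (grey). The red points descend from 1.28 for Retn to values near 0 for Plin1 and longer genes.

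This library bears on the group comparison, since without it the log2 fold change was -0.15 for Fabp4, -0.10 for Cfd and -0.32 for Cidec, and all 3 have a smaller or opposite value with it. By TPM, which divides by length and by the library's own sum, the shorter genes were less extreme in MMP9 mouse 4, with Cfd below 4 other libraries and Retn and Adipoq below 2, although Fabp4 was still the highest of all 10. Among the longer genes, all but Cidec were then low in that mouse. Gpd1 was the lowest of all libraries, and Plin1, Pparg, Lep and Lpl were each the third lowest. Cidec stood at 171 TPM there, within its vehicle range of 70.9 to 261 TPM. With limma on log2(TPM + 1) the log2 fold change was 0.43 for Retn, 0.27 for Adipoq, 0.14 for Cfd and 0.02 for Fabp4, and 0 of 10 genes passed.

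Other genes of fat metabolism were listed by role, 99 genes in 7 lists, of which 96 were tested. Of these 0 passed in edgeR in either direction, as did 0% of all tested genes. An edgeR unadjusted p under 0.05 was seen for 4 of the 96, against 3.19% of all tested genes. The groups did not overlap for 0 of the 96, against 0.564% of all tested genes. The log2 fold changes of the 96 genes were positive for 37 and negative for 59. Their median was -0.04, and 53.7% of all tested genes were positive. Lipid droplet and lipolysis genes were positive in 5 of 15 with a median of -0.11. Plin5, a perilipin of oxidative tissue, averaged 5.97 ± 1.43 CPM with vehicle and 4.15 ± 1.07 with MMP9 (SD, n = 5), a log2 fold change of -0.53 (edgeR adjusted p 0.981). Mgll, monoglyceride lipase, had a log2 fold change of -0.47, which went to -0.16 without vehicle mouse 2, where it stood at 2700.15 CPM.

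Fatty acid and triglyceride synthesis genes were positive in 5 of 18 with a median of -0.07, and lipid uptake and insulin response genes in 3 of 15 with a median of -0.07. Gpam, the acyltransferase that starts glycerolipid synthesis, had 152 ± 18.3 and 131 ± 17.6 CPM, and Acacb, an acetyl-CoA carboxylase, had a log2 fold change of -0.32. The insulin signalling genes Irs2 and Insr had log2 fold changes of -0.22 and -0.18. Adipogenic transcription factors were positive in 2 of 13 with a median of -0.07, and among them Klf5 and Cebpb had -0.24 and -0.21. Single mice moved these values: without MMP9 mouse 4 the log2 fold change was -0.14 for Gpam, -0.19 for Acacb, -0.14 for Irs2, -0.08 for Insr and -0.13 for Klf5. Without vehicle mouse 2 it was -0.13 for Acacb, -0.07 for Cebpb and -0.16 for Klf5, and without MMP9 mouse 1 it was -0.38 for Klf5. None of these genes passed in edgeR, and each one named had an adjusted p of 0.981.

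Among receptors, substrates and relatives of the set, 6 of 15 tested genes were positive, with a median of -0.08. Rarres2, the chemerin gene, averaged 133 ± 30.6 CPM with vehicle and 200.3 ± 77.9 with MMP9 (SD, n = 5), a log2 fold change of 0.59 with a 95% interval from 0.04 to 1.14. Without MMP9 mouse 4 it was 0.33. Adipor2, a receptor of adiponectin, stood at 168 ± 11.4 and 147 ± 7.14 CPM, a log2 fold change of -0.19 with a 95% interval from -0.37 to -0.01. Both had an edgeR adjusted p of 0.981, and neither separated the groups.

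Thermogenic genes were positive in 5 of 8 tested, with a median of 0.13. Elovl3, a fatty acid elongase of brown fat that sebaceous glands also express, had a log2 fold change of -0.80, which went to -0.34 without vehicle mouse 2. Vehicle mouse 2 also had the highest summed sebaceous gland markers, 4957 TPM against 2496 to 3723 TPM in the other libraries, and the part of sebaceous tissue in that value was not tested. Prdm16, a regulator of brown and beige fat, had 7.06 ± 1.33 and 8.24 ± 1.70 CPM, a log2 fold change of 0.22 that went to 0.13 without vehicle mouse 5 and to 0.15 without MMP9 mouse 1. Adipocyte precursor genes were positive in 11 of 12, with a median of 0.16. Ly6a, which marks mesenchymal progenitors, stood at 642 ± 92.2 and 815 ± 187 CPM (log2 fold change 0.35), and Dlk1, a gene of preadipocytes, at 2.81 ± 0.773 and 4.03 ± 1.64 CPM (0.53). Both had an edgeR adjusted p of 0.981. Without MMP9 mouse 4 the log2 fold change of Ly6a was 0.19. Fibroblast markers had a median log2 fold change of 0.16, with 10 of 10 above 0 and 0 of 10 passing, and their part in the precursor values was not tested.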

How the data were processed

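Per the file headers, the authors deposited a read count, a TPM and an FPKM for each gene and library. TPM and FPKM are measures scaled by transcript length and within each library. HISAT and GRCm39 are named in the submitters' processing notes. The quantifier, annotation and strand setting are not given there. Per the labels' protocols, reads were single-end, of 50 bases, from oligo(dT)-selected mRNA. Of the deposited estimated counts, 60.8% are not whole, and they were rounded before testing.

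Genes were tested with edgeR 4.0.16 in R 4.3.3 (filterByExpr, TMM, quasi-likelihood F test, treatment as the only term, Benjamini-Hochberg over all 15250 genes, threshold 0.05). The fit was tested on simulated data. CPM values are scaled by TMM factors, and log2 CPM has a prior count of 2. Standard errors derive from the F statistic, and the p-values of fold changes weigh the group difference against the spread between mice. Relations used 100000 two-sided permutations. The alternatives tried were upper-quartile and RLE factors, omitting the filter, a mean of 1 CPM, DESeq2 1.42.0, limma-voom (limma 3.58.1), limma on log2(TPM + 1) and log2(TPM + 0.1), the mouse number as a block, and each mouse left out. Members and lists were chosen with earlier results of these data known. All 10 members are named, with the 2 genes of smallest p per pathway list and the 8 most like Adipoq. One hair marker on the list is not analysed here. Columns of group means in the deposited table were left aside.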

Additional observations from a re-analysis of the deposited data

Results flagged for a closer look

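A group of 5 mice was looked at for a single mouse far from the others in CPM, in both groups for the 10 adipocyte genes and the 14 named pathway genes, 48 groups in all. In 4 of the 48 groups 1 mouse stood apart by more than 0.71 of the range, and 0 of the 4 were in an adipocyte gene. That cut flags about 5% of groups of independent, normally distributed values. Here CPM was used without logs, and the pathway genes were picked by their p in these data. The 5% is therefore no exact reference for these groups. Mgll was at 2700.15 CPM in vehicle mouse 2 against 1062 to 1466 CPM in the other vehicle mice. Elovl3 was at 583 CPM in the same mouse, against 142 to 247 CPM. Adipor2 was at 148 CPM in vehicle mouse 3, against 169 to 175 CPM. Ly6a was at 1143 CPM in MMP9 mouse 4, against 696 to 776 CPM in the other MMP9 mice.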

How the results depend on the processing

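Under all 19 alternatives 0 of the 10 adipocyte genes passed, and the lowest adjusted p of any of them was 0.887. Over all genes 0 passed, except 1 with DESeq2. Adipoq, Retn and Gpd1 and the 14 named pathway genes kept the sign of their log2 fold change. Lep turned to -0.00338 with limma-voom, -0.0609 on log2(TPM + 1), -0.0669 on log2(TPM + 0.1) and -0.0361 with the replicate block. Lpl turned to -0.0350 on log2(TPM + 1) and -0.0355 on log2(TPM + 0.1). Pparg turned to 0.00775 with upper-quartile factors, 0.00764 with limma-voom and 0.00809 with the replicate block. Leaving out 1 mouse at a time moved the log2 fold change between -0.32 and 0.0695 for Plin1, -0.275 and 0.24 for Lep, -0.10 and 0.33 for Cfd, -0.15 and 0.36 for Fabp4, -0.14 and 0.23 for Lpl, -0.32 and 0.0822 for Cidec, and -0.15 and 0.0939 for Pparg. The cause of these turns was not tested.

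Equal mouse numbers do not mark shared animals, and no shared litter or day is given for them. The correlation of same-numbered deviations ran from -0.24 to 0.46, which cannot show whether equal numbers share a batch. With the replicate block 0 genes passed, 0 of them adipocyte genes. Of the 17 relations with Adipoq, 7 passed, and 5 to 11 when 1 mouse was left out. Sebaceous markers turned from r = 0.27 to -0.0237 when centred on the treatment means and to -0.12 with each gene set to its own mean, a score chosen after the data were seen, and ran from -0.14 to 0.46 with 1 mouse left out. Endothelial markers turned from 0.30 to -0.0834 and -0.14 under the same settings. Macrophage markers ran from -0.0472 to 0.73 with 1 mouse left out. With 5 mice a group, the interval of Retn reached from -0.49 to 1.48.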
